A study of Mus musculus with 10 samples.

Results

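Reads of the nuclear tRNAs that carry threonine, proline and isoleucine were examined in mouse sperm. The members were chosen by name, as the 8 anticodons tRNA-Thr-AGT, tRNA-Thr-CGT, tRNA-Thr-TGT, tRNA-Pro-AGG, tRNA-Pro-CGG, tRNA-Pro-TGG, tRNA-Ile-AAT and tRNA-Ile-TAT, of 51 nuclear anticodons listed in the data. Each was divided into reads of the 5′ end, the 3′ end, the CCA end and the internal rest, which gave 32 parts of 1468 small RNA features. Small RNA was sequenced from the mature sperm of C57BL/6J males, taken from the epididymal tail and vas deferens. The HFD-F0 group (5 samples) had eaten a high-fat diet with 42% of kcal from fat and the CD-F0 group (5 samples) a control diet with 10%, both for 10 weeks from an age of 4 weeks. The sources used here do not state how many mice gave 1 sample, so p-values measure the spread between these samples. Levels are given as RPM, the reads per 1000000 clean reads of the sample, and the number of clean reads was 30431401 to 31586854 in CD-F0 and 29558751 to 32178088 in HFD-F0.

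A tRNA carries its amino acid to the ribosome and pairs with codons through the anticodon, and the trinucleotide CCA at the 3′ end of a mature nuclear tRNA, to which the amino acid is attached, is added by an enzyme after transcription. Fragments of tRNAs (tsRNAs) are a large class of small RNA in mature sperm, and those of the 5′ end are the best known. CCA-end reads are those the annotation lists as reaching the added CCA, and reads of the 3′ end stop before it. RNA of 18–30 nt was cut from a gel, and the deposited values give no fragment lengths.

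RefSeq (GRCm38) lists 49 genes for the 8 tRNAs on 12 chromosomes, of which chromosome 13 holds 16 and chromosome 11 holds 10. There are 15 genes for tRNA-Ile-AAT, 9 for tRNA-Thr-AGT, 7 for tRNA-Pro-TGG, 6 for tRNA-Pro-AGG, 4 each for tRNA-Thr-CGT and tRNA-Thr-TGT, 3 for tRNA-Pro-CGG and 1 for tRNA-Ile-TAT. A sequence is shown for 1 gene of each amino acid to mark the anticodon that gives the member its name and the 3′ end, where the bases CCA are not in the gene. The capitals mark the anticodon, and the genes are n-TTagt9 (chr7:35234770-35234843, minus strand), n-TPtgg2 (chr11:67291139-67291210, plus strand, inside an exon of a transcript of Myh8 that is annotated with a retained intron) and n-TItat14 (chr13:21896938-21897031, minus strand, within the Mir1983 hairpin).
n-TTagt9, tRNA-Thr-AGT: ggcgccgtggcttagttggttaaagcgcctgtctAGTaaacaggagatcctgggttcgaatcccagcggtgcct
n-TPtgg2, tRNA-Pro-TGG: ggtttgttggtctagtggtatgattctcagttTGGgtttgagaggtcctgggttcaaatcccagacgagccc
n-TItat14, tRNA-Ile-TAT: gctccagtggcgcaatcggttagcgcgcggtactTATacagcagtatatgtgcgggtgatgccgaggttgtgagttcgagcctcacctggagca
The proline and threonine genes shown have 72 and 74 bases. The tRNA-Ile-TAT gene has 94, since it holds an intron that is removed from the mature tRNA. In the genome the 3 bases after these genes are GAG, CCC and TGT, in the order shown, and none of them is CCA. After the proline gene only the last of the 3 bases differs from CCA. The authors' alignment allowed 1 mismatch.

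HFD-F0 replicate 1 stood apart from the other libraries. It had the lowest level of the 10 libraries in 12 of the 12 proline parts, in 4 of the 8 isoleucine parts and in 3 of the 12 threonine parts, and the highest total of tRNA-Ile-AAT. Nuclear tRNAs made up 22.6% of the clean reads of HFD-F0 replicate 1, the lowest of the 10 libraries, though CD-F0 replicate 4 was close at 22.9%. The scaling factor of HFD-F0 replicate 1 in edgeR's TMM normalization, which corrects for differences in RNA composition, was 1.21 against 0.904 to 1.02 in the other libraries. Several results below are also given without this library or with clean reads as the library size. Why it stood apart was not tested. The files also list miRNAs known as markers of cell types. The sperm and testis list (5 of 5 miRNAs detected, mmu-mir-449a the most abundant) summed to 11654 ± 960 RPM (SD, n = 5) in CD-F0 and 10486 ± 2877 RPM in HFD-F0. In that list mmu-mir-449a averaged 7107 RPM in CD-F0 and 5606 RPM in HFD-F0, whereas mmu-mir-34b (2458 and 2631 RPM) and mmu-mir-34c (2085 and 2245 RPM) had the higher mean in HFD-F0. The epithelial list (6 of 6, mmu-mir-429 the most abundant) summed to 5519 ± 1194 and 6890 ± 1574 RPM, and the blood list (6 of 7, mmu-mir-146a the most abundant, mmu-mir-142 not listed) to 4369 ± 794 and 4618 ± 1115 RPM. In the blood list mmu-mir-223 (362 and 528 RPM) and mmu-mir-150 (318 and 475 RPM) had the higher mean in HFD-F0. There mmu-mir-451a (1122 and 964 RPM) had the lower mean, and mmu-mir-146a was nearly level (2565 and 2648 RPM). The smooth muscle list (6 of 6) summed to 26111 ± 3613 and 29202 ± 8232 RPM, of which mmu-mir-143 made up 94.9%. In it mmu-mir-145a averaged 578 RPM in CD-F0 and 1302 RPM in HFD-F0. Nearly level were mmu-mir-1a-1 (151 and 149 RPM) and mmu-mir-133a-1 (77.0 and 82.6 RPM). Markers of other cell types were thus measured in these samples, and their part in the tRNA reads was not tested. Less RNA per cell and fewer cells of a type cannot be told apart in such bulk samples.

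Reads of the 8 tRNAs summed to 13010.5 ± 1994 RPM (SD, n = 10), with a range of 9969 to 15572, and were 5.27% of the reads of nuclear tRNAs. tRNA-Ile-AAT was the most abundant at 5796 ± 855 RPM, which placed it 15th of 51 anticodons. Then came tRNA-Thr-TGT at 2481 ± 1328 RPM, tRNA-Thr-CGT at 1344 ± 310 RPM, tRNA-Pro-TGG at 1197 ± 303 RPM and tRNA-Pro-AGG at 1162 ± 290 RPM. The lowest were tRNA-Pro-CGG at 588 ± 148 RPM, tRNA-Ile-TAT at 232 ± 52.7 RPM and tRNA-Thr-AGT at 211 ± 51.1 RPM. These levels were not divided by length, and the RefSeq genes have 72 to 74 bases for the threonine and proline members and 73 to 96 for isoleucine, with any intron counted.

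Neighbours in this order were not all apart. tRNA-Ile-AAT exceeded tRNA-Thr-TGT in 10 of 10 libraries, tRNA-Thr-TGT exceeded tRNA-Thr-CGT in 9, and tRNA-Pro-CGG exceeded tRNA-Ile-TAT in 10. The order of tRNA-Thr-CGT and tRNA-Pro-TGG held in 6 of 10 libraries and that of tRNA-Ile-TAT and tRNA-Thr-AGT in 7, and the differences between their means were smaller than their SDs. The number of RefSeq genes was higher for the more abundant isoleucine tRNA (15 and 1), whereas in threonine tRNA-Thr-AGT, with 9 genes, had the lowest level of the 8 tRNAs and tRNA-Thr-TGT, with 4, the second highest.

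**Figure D1:**
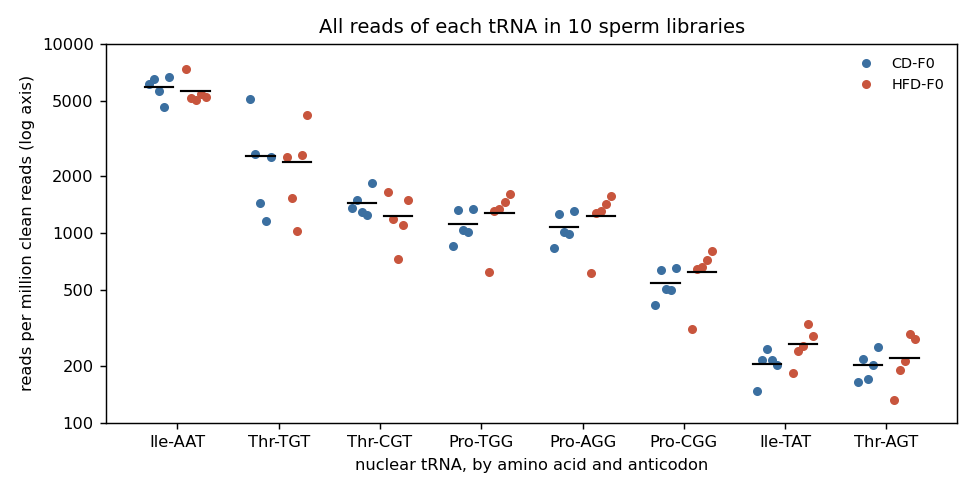
RPM (log axis) of all parts of each of the 8 tRNAs, with 1 point per library (5 CD-F0, 5 HFD-F0, replicates 1 to 5 from left to right) and a black line at the group mean. The groups overlap for every tRNA, and 1 HFD-F0 library, replicate 1, lies below the other libraries for the 3 proline tRNAs.

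The 3 threonine tRNAs differed from each other in which part of the molecule gave the reads. tRNA-Thr-TGT was mostly 5′ end, with 76.3% of its reads there, 16.5% internal, 6.89% at the CCA end and 0.316% at the 3′ end (means of 10 libraries). tRNA-Thr-CGT was nearly all internal, at 95.5%, with 1.81% at the 5′ end, and of the 48 nuclear anticodons with a mean of at least 100 RPM it had the highest internal share and the lowest 5′ share. tRNA-Thr-AGT had 37.9% of its reads at the CCA end, the highest CCA share of the 48, beside 46.6% internal, 12.8% at the 5′ end and 2.74% at the 3′ end. For the 40 other nuclear anticodons at that level, the medians were 54.3% for the 5′ end (7.25% to 94.9%), 41.8% for the internal part (4.45% to 90.2%), 1.53% for the CCA end (0.0967% to 14.4%) and 0.117% for the 3′ end (at most 1.71%).

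These differences were larger than the spread between libraries. The internal share of tRNA-Thr-CGT lay between 93.4% and 96.8% in the 10 libraries, whereas the internal share of tRNA-Thr-TGT lay between 5.41% and 33.6%. The CCA share of tRNA-Thr-AGT, 33.4% to 48.1%, did not overlap with that of tRNA-Thr-TGT, 2.62% to 12.0%. The likeness of shares was measured as the Euclidean distance between the mean percentages of the 4 parts, among the 40 other anticodons. Nearest to tRNA-Thr-TGT was tRNA-Ser-CGA, with 81.9% of its reads at the 5′ end, at a distance of 8.16 percentage points.

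The 3 proline tRNAs had nearly the same makeup, with 26.6% to 28.0% at the 5′ end, 59.2% to 62.0% internal, 7.66% to 8.64% at the CCA end and 3.67% to 4.16% at the 3′ end. Their 3′ shares were the 3 highest of the 48 anticodons. The likeness of the 3 is not independent evidence of 3 like molecules. A read that fits several tRNAs was split between them in the deposited values, and the ratio of tRNA-Pro-AGG to tRNA-Pro-CGG reads was 2.0 in each library at the 3′ and CCA ends. At the 5′ end the ratio was 1.99 or more, and in the internal part it was 1.93 to 1.97. tRNA-Pro-AGG and tRNA-Pro-TGG reads stood at a ratio of 1.0 to 1.04 at the 5′ end and 1.05 to 1.12 at the CCA end. Of 48 deposited values of the 8 tRNAs in each library (totals and ends, genome-matched and unmatched apart), 36 to 43 had a fractional part above 0. The 3 proline members are therefore read below as near copies of 1 measurement. Nearest to tRNA-Pro-TGG among the other anticodons was tRNA-Arg-CCG, at a distance of 6.92 percentage points, with a 3′ share of 1.42% and a CCA share of 3.61%.

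The 2 isoleucine tRNAs differed in makeup. tRNA-Ile-AAT was divided about evenly between the 5′ end (47.6%) and the internal part (49.7%), with 2.58% at the CCA end and 0.150% at the 3′ end. tRNA-Ile-TAT was mostly internal, at 86.5%, the third highest internal share of the 48, with 7.36% at the 5′ end, 5.85% at the CCA end and 0.291% at the 3′ end. The 5′ share was 35.5% to 53.0% over the libraries for tRNA-Ile-AAT and 4.20% to 13.5% for tRNA-Ile-TAT, without overlap. Nearest to tRNA-Ile-AAT was tRNA-Gly-TCC, at a distance of 1.81 percentage points, with 46.2% at the 5′ end and 50.6% internal.

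**Figure D2:**
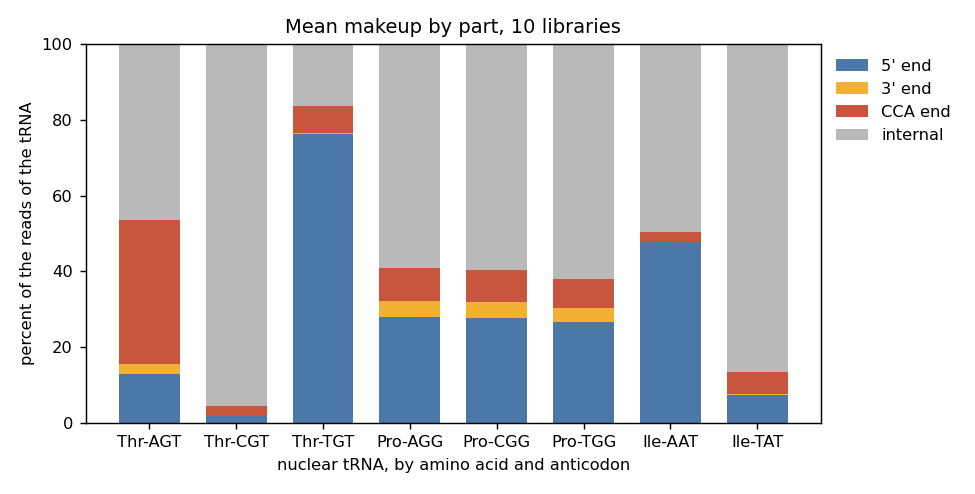
Mean percent of the reads of each tRNA (vertical axis, 10 libraries) that came from the 5′ end, the 3′ end, the CCA end and the internal part, stacked to 100. tRNA-Thr-TGT is mostly 5′ end, tRNA-Thr-CGT and tRNA-Ile-TAT are mostly internal, and tRNA-Thr-AGT has the tallest CCA segment, at 37.9%.

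The tRNA-Ile-TAT gene shown above lies whole inside the Mir1983 hairpin, a gene of 132 bases (chr13:21896918-21897049). The mature miRNA annotated there shares its first 13 bases with the 3′ end of the tRNA gene and runs 8 bases past it. It is shown with the shared bases in capitals (chr13:21896930-21896950, minus strand).
mmu-miR-1983: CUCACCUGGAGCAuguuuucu
Reads listed for mmu-mir-1983 amounted to 10.2 ± 1.81 RPM in CD-F0 and 12.0 ± 3.43 RPM in HFD-F0 (SD, n = 5 each; p = 0.357, exact permutation test, two-sided). How many reads of the tRNA were listed under the miRNA, or the reverse, was not tested. The precursor of tRNA-Ile-TAT was listed at 0.131 to 0.970 RPM. No precursor reads were listed for the other 7 tRNAs.

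Among the 8 tRNAs, tRNA-Thr-TGT varied most between libraries. Its total ran from 1026 to 5120 RPM, a ratio of 4.99, and its coefficient of variation of 53.5% was the second highest of the 48 anticodons. The variation was in the 5′ end, the part with the most reads. The 5′ end was at 4701, 2154, 1051, 695 and 2029 RPM in CD-F0 replicates 1 to 5, and at 2075, 1057, 558, 2150 and 3752 RPM in HFD-F0 replicates 1 to 5. The groups overlapped over most of their range, and each held both low and high libraries. The internal part was at 277, 309, 307, 318 and 320 RPM in CD-F0 and at 332, 304, 345, 315 and 336 RPM in HFD-F0, so it hardly moved where the 5′ end changed by a ratio of 8.42. Their coefficients of variation over the 10 libraries were 65.9% for the 5′ end and 6.03% for the internal part. The CCA end varied by 21.1% and the 3′ end by 21.7%. In the other 7 tRNAs the coefficient of variation of the total was 14.8% (tRNA-Ile-AAT) to 25.4% (tRNA-Pro-TGG).

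**Figure D3:**
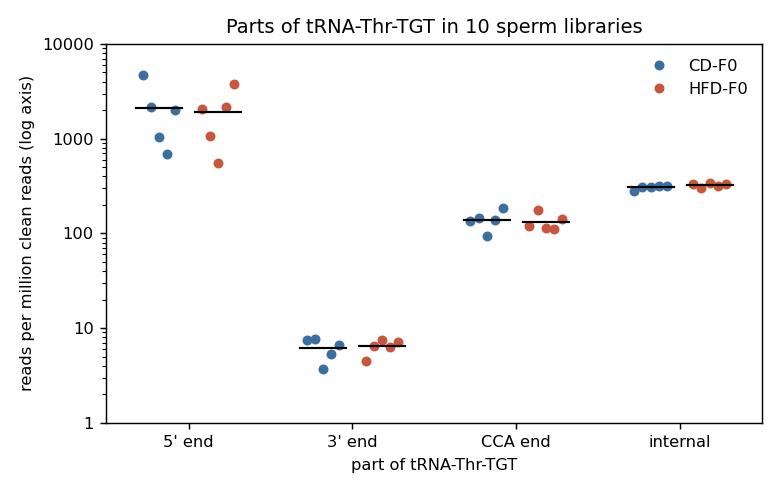
RPM (log axis) of the 4 parts of tRNA-Thr-TGT, with 1 point per library (5 CD-F0, 5 HFD-F0, replicates 1 to 5 from left to right) and a black line at the group mean. The 5′ end spans 558 to 4701 RPM over both groups, and the internal part 277 to 345 RPM.

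Whether the diet changed the level of these fragments was then tested. The 32 parts were fitted together with all other features by edgeR's quasi-likelihood test with the thresholds of the study, a p-value of at most 0.05 and a log2 fold change of at least 1 in size. None of the 32 parts was called in either direction, against 30 of the 814 features that passed the filter on low counts (3.69%). All 32 parts passed that filter. By an unadjusted p-value of at most 0.05 alone there were also 0 of 32, against 10.2% of all features tested, and DESeq2 gave 0 of 32 by either rule. The median log2 fold change of the parts (HFD-F0 against CD-F0) was 0.10, against −0.01 for all features. This median rested on single libraries and on the scaling, since it was 0.23 without HFD-F0 replicate 1, 0.02 without HFD-F0 replicate 4, −0.01 without HFD-F0 replicate 5, −0.0045 with tsRNA features only and 0.0076 with the replicate number as a block. Of the 161 other nuclear tRNA parts tested, 3 were called higher and 0 lower.

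The 95% interval of the log2 fold change stayed within ±1 for 29 of the 32 parts, so a change past that threshold lay outside it for these. For the other 3 it did not: the tRNA-Thr-TGT 5′ end (−1.49 to 0.95), the tRNA-Thr-CGT 3′ end (−0.34 to 1.12) and the tRNA-Ile-TAT 3′ end (−0.44 to 1.56). The last is the part with the fewest reads, and its lowest level, in CD-F0 replicate 4, was 0.318 RPM, with a Wilson 95% interval of 0.173 to 0.585 that covers counting error only. Among the 29, the upper limits of the tRNA-Pro-AGG and tRNA-Pro-CGG 3′ ends were 0.999, barely inside the threshold.

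**Figure D4:**
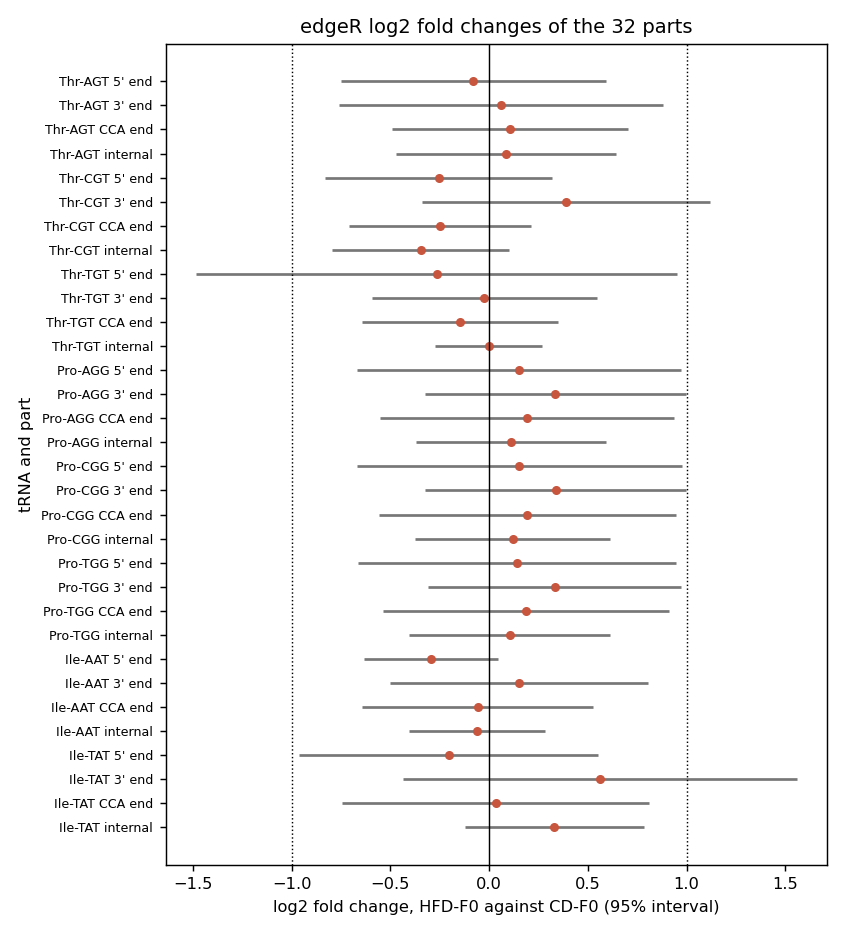
edgeR log2 fold change of HFD-F0 against CD-F0 (horizontal axis) for the 32 parts, with 95% intervals as lines, a solid line at 0 and dotted lines at the thresholds of −1 and 1. Every interval includes 0, and the interval of the tRNA-Thr-TGT 5′ end is the one that passes −1.

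In threonine, the most abundant part, the tRNA-Thr-TGT 5′ end with the values given above, had a log2 fold change of −0.27 (SE 0.56, adjusted p = 0.916 after Benjamini-Hochberg over all features in edgeR's quasi-likelihood fit). It ranged from −0.71 (without HFD-F0 replicate 5) to 0.34 (without CD-F0 replicate 1) when 1 library was left out. The smallest p among the threonine parts was that of the tRNA-Thr-CGT internal part. It was at 1301, 1441, 1230, 1204 and 1784 RPM in CD-F0 replicates 1 to 5 and at 1597, 1141, 684, 1034 and 1435 RPM in HFD-F0. Of the HFD-F0 libraries 3 lay below all CD-F0 libraries and 2 within their range. The log2 fold change was −0.35 (SE 0.21, adjusted p = 0.574 by edgeR), and −0.20 without HFD-F0 replicate 3, the lowest library. For the CCA end of tRNA-Thr-AGT, the part in which this tRNA stands out, the values were 57.5, 86.6, 61.4, 76.6 and 95.2 RPM in CD-F0 and 44.4, 71.9, 101.6, 98.1 and 108 RPM in HFD-F0, and the log2 fold change was 0.10 (SE 0.27). It was 0.25 without HFD-F0 replicate 1, and turned to −0.015 without HFD-F0 replicate 5, to −0.0041 with tsRNA features only and to −0.41 with genome-matched reads alone.

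In proline, all 12 parts had a log2 fold change above 0, between 0.10 and 0.34, and none passed the test. These values were 0.23 to 0.51 without HFD-F0 replicate 1, the lowest library in all 12, with 0.35 to 0.37 at the 5′ ends and 0.38 to 0.39 at the CCA ends. In 7 of the 12 that sign turned in at least 1 alternative. The 3 internal parts were at −0.04 to −0.05 without HFD-F0 replicate 5, the 3 5′ ends at −0.02 to −0.03 with the replicate number as a block, the tRNA-Pro-TGG CCA end at −0.01 with genome-matched reads alone, and the tRNA-Pro-TGG internal part also at −0.0049 when only tsRNA features set the scale. The 12 values are not independent, for the reason given with the split reads. The most abundant part, the tRNA-Pro-TGG internal part, was at 584, 834, 637, 591 and 804 RPM in CD-F0 and at 464, 747, 756, 862 and 1046 RPM in HFD-F0, so the HFD-F0 values enclosed those of CD-F0. Its log2 fold change was 0.10 (SE 0.23, adjusted p = 0.921 by edgeR), with a range of −0.045 (without HFD-F0 replicate 5) to 0.23 (without HFD-F0 replicate 1). The smallest p was that of the tRNA-Pro-TGG 3′ end, at 25.7, 47.1, 41.2, 39.3 and 37.9 RPM in CD-F0 and 23.5, 42.7, 69.7, 50.4 and 64.1 RPM in HFD-F0. There 3 HFD-F0 libraries lay above all CD-F0 libraries and replicate 1 below them, with a log2 fold change of 0.33 (SE 0.29, adjusted p = 0.764 by edgeR). Without HFD-F0 replicate 1 it was 0.50 (adjusted p = 0.292 by edgeR, with an unadjusted value of 0.0273), and leaving out the same library gave 0.51 for the 3′ ends of both other proline tRNAs. None of these reached the fold threshold. The tRNA-Pro-TGG 3′ end was lower, at 0.20, without HFD-F0 replicate 3, and was 0.21 without HFD-F0 replicate 5 and 0.22 with tsRNA features only.

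In isoleucine, the smallest p was that of the tRNA-Ile-AAT 5′ end. It was at 3244, 3168, 2985, 2249 and 3037 RPM in CD-F0 and at 3763, 2351, 2661, 2357 and 1871 RPM in HFD-F0. The HFD-F0 group held both the highest and the lowest library. The log2 fold change was −0.30 (SE 0.16, adjusted p = 0.514 by edgeR, with an unadjusted value of 0.0821). Without HFD-F0 replicate 1 it was −0.43 (adjusted p = 0.281 by edgeR, with an unadjusted value of 0.0189). Without CD-F0 replicate 4, the lowest of its group, it was −0.37 (adjusted p = 0.608 by edgeR, with an unadjusted value of 0.0412). It was smaller with clean reads as the library size (−0.18, adjusted p = 0.896 by edgeR) and without CD-F0 replicate 1 or HFD-F0 replicate 5 (−0.21 each). The internal part, the most abundant, was at 2789, 3219, 2514, 2224 and 3424 RPM in CD-F0 and at 3527, 2639, 2227, 2923 and 3259 RPM in HFD-F0, nearly the same range. Its log2 fold change was −0.06 (SE 0.16, adjusted p = 0.941 by edgeR), and its sign depended on the scaling, since it was 0.04 with clean reads as the library size. The tRNA-Ile-TAT internal part had 0.33 (SE 0.21, edgeR adjusted p = 0.609), and 0.42 without HFD-F0 replicate 1 (adjusted p = 0.318, with an unadjusted value of 0.0333). It was 0.19 without HFD-F0 replicate 4 and 0.15 with genome-matched reads alone. Without HFD-F0 replicate 1, 5 of the 32 parts had an unadjusted p-value of at most 0.05, against 14.8% of all features tested in that fit.

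The totals of the 8 tRNAs were compared one by one with an exact permutation test over the 10 samples. Of 8 totals, 0 reached p ≤ 0.05 in the exact test. The smallest p was that of tRNA-Ile-TAT, which was at 148, 215, 245, 214 and 201 RPM in CD-F0 and at 183, 238, 256, 332 and 288 RPM in HFD-F0. The mean was 204 ± 35.5 RPM in CD-F0 and 259 ± 55.7 RPM in HFD-F0 (SD, n = 5 each; p = 0.103, exact permutation test, two-sided, 0.698 after Benjamini-Hochberg adjustment over the 8). Of the HFD-F0 libraries 3 lay above all CD-F0 libraries. Without HFD-F0 replicate 1 the HFD-F0 mean was 278 ± 41.1 RPM (p = 0.0238 in the exact permutation test, adjusted 0.127). The difference between the means, 54.8 RPM with all samples, was 36.7 RPM without HFD-F0 replicate 4 and 25.2 RPM with genome-matched reads alone (p = 0.310, exact permutation test). For tRNA-Pro-AGG the means were 1083 RPM in CD-F0 and 1241 RPM in HFD-F0, and for tRNA-Pro-CGG 547 and 629 RPM (p = 0.397 each, exact permutation test). Without HFD-F0 replicate 1 the HFD-F0 means were 1397 and 708 RPM (p = 0.0476 each in the exact permutation test, adjusted 0.127). Summed by amino acid, threonine reads were at 4232 ± 1610 RPM in CD-F0 and 3839 ± 1524 RPM in HFD-F0, proline reads at 2750 ± 515 and 3144 ± 935 RPM, and isoleucine reads at 6127 ± 813 and 5929 ± 929 RPM (SD, n = 5 each). Without HFD-F0 replicate 1 the HFD-F0 sums were 3720 ± 1732 RPM for threonine, 3541 ± 343 RPM for proline and 5521 ± 206 RPM for isoleucine (SD, n = 4).

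No share of a part differed between the groups beyond the spread of the samples. Of 32 shares, 0 reached p ≤ 0.05 in the exact permutation test. The smallest p was that of the 5′ share of tRNA-Ile-TAT, at 10.0%, 8.85%, 5.58%, 5.96% and 13.5% in CD-F0 and 4.46%, 6.36%, 4.20%, 5.54% and 9.18% in HFD-F0. The groups overlapped, and their means were 8.78% ± 3.23 and 5.95% ± 2.0 (SD, n = 5 each; p = 0.119, exact permutation test, two-sided, adjusted 0.991). Without CD-F0 replicate 5, the highest library, the difference (HFD-F0 less CD-F0) was −1.66 percentage points, against −2.83 with all samples. The internal share of tRNA-Thr-CGT was 95.7% ± 1.03 in CD-F0 and 95.2% ± 1.46 in HFD-F0, the CCA share of tRNA-Thr-AGT 37.4% ± 1.93 and 38.4% ± 5.96, and the 5′ share of tRNA-Thr-TGT 77.3% ± 11.9 and 75.3% ± 13.8. The 3′ share of tRNA-Ile-AAT was 0.133% ± 0.0400 in CD-F0 and 0.167% ± 0.0639 in HFD-F0, and 0.194% ± 0.0195 in HFD-F0 without replicate 1 (p = 0.0397, exact permutation test, adjusted 0.726).

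CCA-end reads were then divided by whether they matched the genome. The tRNAs differed widely in this. For tRNA-Thr-AGT 91.2% to 97.7% of the CCA-end reads did not match, for tRNA-Ile-AAT 57.3% to 88.6%, and for tRNA-Pro-AGG 46.6% to 66.5%. The tRNA-Ile-TAT values lay between 32.5%, in HFD-F0 replicate 1, and 82.4%, and the next lowest was 64.3%, in CD-F0 replicate 1. tRNA-Thr-TGT was at the low end, with 8.22% to 34.4%, so most of its CCA-end reads matched the genome somewhere within 1 mismatch. Its range did not overlap with that of either other threonine tRNA, since tRNA-Thr-CGT lay at 38.9% to 93.5%.

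**Figure D5:**
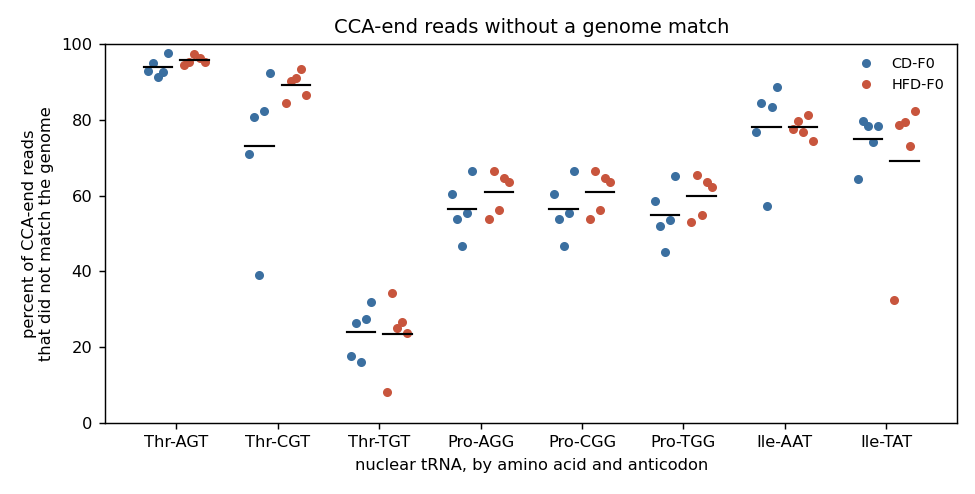
Percent of the CCA-end reads of each tRNA that did not match the genome (vertical axis), with 1 point per library (5 CD-F0, 5 HFD-F0, replicates 1 to 5 from left to right) and a black line at the group mean. tRNA-Thr-AGT lies above 91% in all libraries and tRNA-Thr-TGT below 35%. For tRNA-Thr-CGT 1 CD-F0 library lies far below the others at 38.9%, and for tRNA-Ile-TAT HFD-F0 replicate 1 does so at 32.5%.

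Of these 8 unmatched shares, 0 differed between the groups at p ≤ 0.05 in the exact permutation test. The smallest p was that of tRNA-Thr-CGT, at 70.9%, 80.8%, 38.9%, 82.4% and 92.2% in CD-F0 and 84.5%, 90.3%, 91.1%, 93.5% and 86.5% in HFD-F0. The CD-F0 values spread widely, and 4 of them lay below all HFD-F0 values. The means were 73.0% ± 20.5 and 89.2% ± 3.61 (SD, n = 5 each; p = 0.0556, exact permutation test, two-sided, adjusted 0.444). Without CD-F0 replicate 5, the highest of its group, the groups did not overlap (p = 0.00794, the smallest that 126 assignments allow in the exact permutation test, adjusted 0.0635). Without CD-F0 replicate 3, the lowest, the difference between the means fell from 16.1 to 7.61 percentage points (p = 0.111, exact permutation test).

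The genome-matched CCA-end reads of tRNA-Thr-CGT themselves were at 11.1, 6.16, 33.2, 4.12 and 2.36 RPM in CD-F0 and at 5.33, 2.86, 2.67, 2.18 and 4.38 RPM in HFD-F0. In a fit of genome-matched reads alone this was the 1 part of 32 past both thresholds, with a log2 fold change of −1.81 (SE 0.60, adjusted p = 0.279 by edgeR, with an unadjusted value of 0.0107). CD-F0 replicate 3 was 3.0 times as high as the next library, and in that fit 4.33% of the 808 features tested were called, so 1 of 32 is near the background. With matched and unmatched reads together the CCA end of tRNA-Thr-CGT had −0.25 (SE 0.21, edgeR adjusted p = 0.744). For tRNA-Thr-AGT the unmatched shares were 93.8% ± 2.53 in CD-F0 and 95.7% ± 1.13 in HFD-F0 (p = 0.167, exact permutation test).

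The mitochondrial tRNAs for the same amino acids, which are encoded by the mitochondrial genome, are separate molecules. The total of mitochondrial tRNA-Ile-GAT was 15.1 ± 4.00 RPM in CD-F0 (10.7 to 19.5) and 30.6 ± 6.65 RPM in HFD-F0 (21.6 to 38.9) without overlap (n = 5 each; p = 0.00794, the smallest that the 252 assignments of the exact permutation test allow). Mitochondrial tRNA-Thr-TGT was at 32.4 ± 13.7 and 52.3 ± 10.6 RPM (p = 0.0556, exact permutation test) and mitochondrial tRNA-Pro-TGG at 12.1 ± 1.01 and 18.2 ± 9.68 RPM (p = 0.119, exact permutation test). The exact p-values of these mitochondrial totals were not adjusted. In edgeR's fit the mitochondrial tRNA-Ile-GAT internal part had a log2 fold change of 0.82 and was not called (adjusted p = 0.225 by edgeR). The CCA end of this tRNA had 1.58 and was called (adjusted p = 0.085 by edgeR), and the 5′ end had 0.46 (adjusted p = 0.907 by edgeR). Whether the nuclear and the mitochondrial tRNAs differed in their response was not tested.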

How the data were processed

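Clean reads of 10 sperm small RNA libraries were annotated by the authors with SPORTS, which aligned them with Bowtie to the mouse genome (mm10 in the submitters' processing notes) and then to RNA sets in turn, miRNAs before tRNAs. The adapters carried unique molecular identifiers, but collapsing of reads with the same identifier is not given in the sources used here. The deposited values are estimated counts per class and sub-class, without normalization, in which reads with more than 1 possible sub-class are divided. Genome-matched and unmatched reads were added here, and the internal part was taken as the total less the 3 ends. Values were rounded to whole numbers and tested in 1 fit over 814 features with edgeR 4.0.16 in R 4.3.3 (filterByExpr, TMM, quasi-likelihood test, Benjamini-Hochberg adjustment over all features). Totals, shares and unmatched CCA shares were compared with exact permutation tests over samples, adjusted within each family of 8, 32 and 8. Wilson intervals cover counting error only, and the intervals of log2 fold changes come from the edgeR fit and hold the spread between samples. Alternatives were DESeq2 1.42.0, other denominators and filters, genome-matched reads alone, leaving out each library, and the replicate number as a block.

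The members and lists were chosen with earlier results of these data known. By rule, per-sample values are given for parts under the p threshold, otherwise for the part with the smallest edgeR p of each amino acid, and for its most abundant part. The tRNA-Thr-AGT CCA end, the tRNA-Thr-TGT internal part, the tRNA-Ile-TAT internal part and the parts named for a changed result were added after their values were seen. On simulated data for this comparison the fit recovered 190 of 192 features changed by 2 on the log2 scale, over 814 features. No pair of libraries agreed within sampling noise (chi-square per degree of freedom at least 508 over 45 pairs). RefSeq sequences were read from the tables and transcripts of GRCm38, which held 3 of the 49 genes.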

Additional observations from a re-analysis of the deposited data

Results flagged for a closer look

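In 7 of 80 groups of 5 values (8 tRNAs, 4 parts and the total, 2 diets), 1 library lay further from the others than Dixon's 95% criterion allows. Chance alone marks about 1 in 20 groups. In 5 of the 7 the library was HFD-F0 replicate 1. It had the lowest level of the group at the 5′ ends of tRNA-Pro-AGG (98.0 RPM, the next 385), tRNA-Pro-CGG (49.1 RPM, the next 193) and tRNA-Pro-TGG (97.7 RPM, the next 374), which share split reads and so count as near copies. It also had the lowest tRNA-Ile-AAT 3′ end, 4.16 RPM against 8.99 in the next library, and the highest tRNA-Ile-AAT total, 7376 RPM against 5461. In CD-F0, replicate 4 had the lowest tRNA-Ile-AAT 5′ end, 2249 RPM against 2985 in the next library, and replicate 5 the highest tRNA-Ile-TAT 3′ end, 1.02 RPM against 0.460, a part of few reads. HFD-F0 replicate 1 had 32002811 clean reads, within the range of the other HFD-F0 libraries, and 74.7% of them matched the genome, against 73.3% to 74.4% in the others. The cause was not tested.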

How the results depend on the processing

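No part was called in any of 16 of the 17 alternatives to the edgeR fit. The exception was the fit of genome-matched reads alone, which called 1, the tRNA-Thr-CGT CCA end, beside 35 of 808 features (4.33%). Leaving out 1 library at a time gave 0 to 0 called parts, 0 to 3 totals, 0 to 1 shares and 0 to 2 unmatched CCA shares at p ≤ 0.05 in the exact tests. The 3 totals (tRNA-Pro-AGG, tRNA-Pro-CGG, tRNA-Ile-TAT) and the 1 share (tRNA-Ile-AAT 3′ end) came without HFD-F0 replicate 1, where the tRNA-Ile-TAT difference was 74.0 RPM (54.8 with all samples, 36.7 without HFD-F0 replicate 4 and 25.2 with genome-matched reads alone). The 2 unmatched shares (tRNA-Thr-CGT and tRNA-Thr-AGT) came without CD-F0 replicate 5, where the tRNA-Thr-CGT difference was 20.9 percentage points (16.1 with all samples), and the difference was 7.61 without CD-F0 replicate 3.

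The sign of 15 of the 32 log2 fold changes held in all 17 alternatives, 9 above and 6 below 0. That of the other 17 turned in at least 1. Among the parts given in full, the tRNA-Thr-TGT 5′ end ranged from −0.71 to 0.34 when 1 library was left out, with 0.34 without CD-F0 replicate 1. The tRNA-Pro-TGG internal part ranged from −0.045 to 0.23, the lowest without HFD-F0 replicate 5, and was −0.0049 with tsRNA features only. The tRNA-Ile-AAT internal part ranged from −0.13 to 0.024, which was the value without HFD-F0 replicate 3, was 0.0092 without CD-F0 replicate 5, and was 0.041 with clean reads as the library size. The cause was not tested.

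Over all features, 30 were called in the main fit, 93 without a filter on low counts, 19 with at least 10 counts in every sample, 14 of 248 with tsRNA features only, and 22 to 50 with 1 library left out. With the replicate number as a replicate block, 0 parts and 25 of all features were called. There the tRNA-Thr-CGT internal part had −0.38 (adjusted p = 0.440 by edgeR, with an unadjusted value of 0.0374) and the 5′ ends of the 3 proline tRNAs turned to between −0.03 and −0.02. The correlations between samples of the same number were 0.34, −0.09, 0.25, −0.19 and −0.14, and 2 of 5 CD-F0 libraries correlated best with their own number. The labels do not say what the number stands for. So few correlations cannot show whether samples of the same number were handled together.

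Fragment lengths are not in the deposited values. Reads shared by near-identical tRNAs were split before deposit, so proline members cannot be told apart at their ends. The 3′ ends of tRNA-Thr-CGT and tRNA-Ile-TAT had the fewest reads, and the 95% intervals of their change included a 2-fold rise.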
